A study of Danio rerio with 8 samples.

Results

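The anterior trunk was compared with the posterior trunk in zebrafish embryos that served as the siblings of foxc1a mutants. The comparison rests on 4 of 8 RNA-seq libraries, chosen by their titles: SIB_AS replicates 1 and 3 hold the anterior segments and SIB_PS replicates 1 and 3 the posterior segments. SIB_AS pieces were dissected from somitic segments 1 to 6, the path of the motor nerves that supply the pectoral fin, and SIB_PS pieces from segment 7 to about segment 12, where those nerves do not run. Embryos were 38 to 40 hours old and raised at 28 °C, and heads and yolks had been cut away. The characteristics give both sibling groups the genotype foxc1a p162/+, that is, 1 copy of the mutant allele, while the design text speaks of wild type controls, so these libraries may not stand for embryos with 2 intact copies. The other 4 libraries hold the same regions of foxc1a p162/p162 embryos (MUT_AS and MUT_PS) and enter the filter on low values, the estimate of the spread and one closing comparison. How many embryos were pooled, and whether the replicates are of different clutches, is not stated in the labels, and all p-values thus measure only the spread between libraries, which may be technical.

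The body axis of a vertebrate embryo is read out by the hox genes, a family of homeobox transcription factors that lie in clusters. Genes of low paralog number are switched on in front and those of high number behind, and retinoic acid, made in the somites and destroyed in the head, activates the low-numbered ones. The somites on either side give rise to muscle, to the sclerotome that forms skeleton and connective tissue, and to the dermis, while motor axons leave the spinal cord through them. In the front segments these axons gather at the base of the pectoral fin, the fish counterpart of the forelimb.

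Of 52 gene lists with tested members, hox paralog groups 4 and 5 had the highest median difference and groups 9 and 10 the lowest. The lists were chosen with earlier results of these data known, so this order is a description. Genes of the hindbrain, the islets of the pancreas and the cell cycle were higher in SIB_AS, and genes of muscle fibres, the fin fold and plasma proteins were lower. Values are RPKM, which relates the reads of a transcript to its length and to the depth of sequencing. Differences are SIB_AS minus SIB_PS on the log2(RPKM + 1) scale, tested with limma over 10654 transcripts and called where the Benjamini-Hochberg adjusted p lay under 0.05. Of these transcripts 4479 (42.0%) were called higher in SIB_AS and 1052 (9.87%) lower, and 1556 (14.6%) and 334 (3.13%) differed by at least 1 on the log2 scale. Both SIB_AS libraries lay above both SIB_PS libraries for 63.2% of transcripts and below them for 20.1%. With 2 libraries against 2 an exact permutation test could not go below p = 0.333, so calls draw on the spread of all 8 libraries. The SD of log2 values between replicates, as a root mean square over transcripts, was 0.358 in MUT_AS and 0.179 to 0.194 in the other groups. A fit of the 4 sibling libraries alone called 5434 transcripts higher and 1441 lower. A mean of at least 1 RPKM over all libraries was asked of each transcript, so a gene close to this limit could pass through the region where it was higher, and counts over the members of a list that passed are descriptions.

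The split between higher and lower calls depended on the scale. Genes of the fast muscle list held 8.27% and 10.5% of all RPKM in SIB_AS, against 19.1% and 22.7% in SIB_PS, and the 10 most abundant transcripts held 7.99% and 10%, against 16.6% and 20.4%. The median transcript stood at 5.19 and 5.34 RPKM in SIB_AS, and at 3.92 and 3.62 RPKM in SIB_PS. As deposited, the median difference of all transcripts was not 0 but 0.40. When every library was scaled to one median, 2050 transcripts (19.2%) were called higher and 2300 (21.6%) lower in SIB_AS, with a median difference of 0.01. All 2050 were among the 4479, and all 1052 lower calls were kept. Counts below are given on both scales, and a deposited difference near 0.40 is a difference near that of the median transcript. Each list count is to be read against the shares of all transcripts. These were 42.0% higher and 9.87% lower as deposited, and 19.2% and 21.6% at one median. Leaving out any 1 sibling library lowered the higher and lower counts over all transcripts. A smaller count in a list without 1 sibling library is thus not by itself particular to that list. In pieces of whole trunk, fewer cells of a type and less RNA per cell cannot be told apart.

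**Figure D1:**
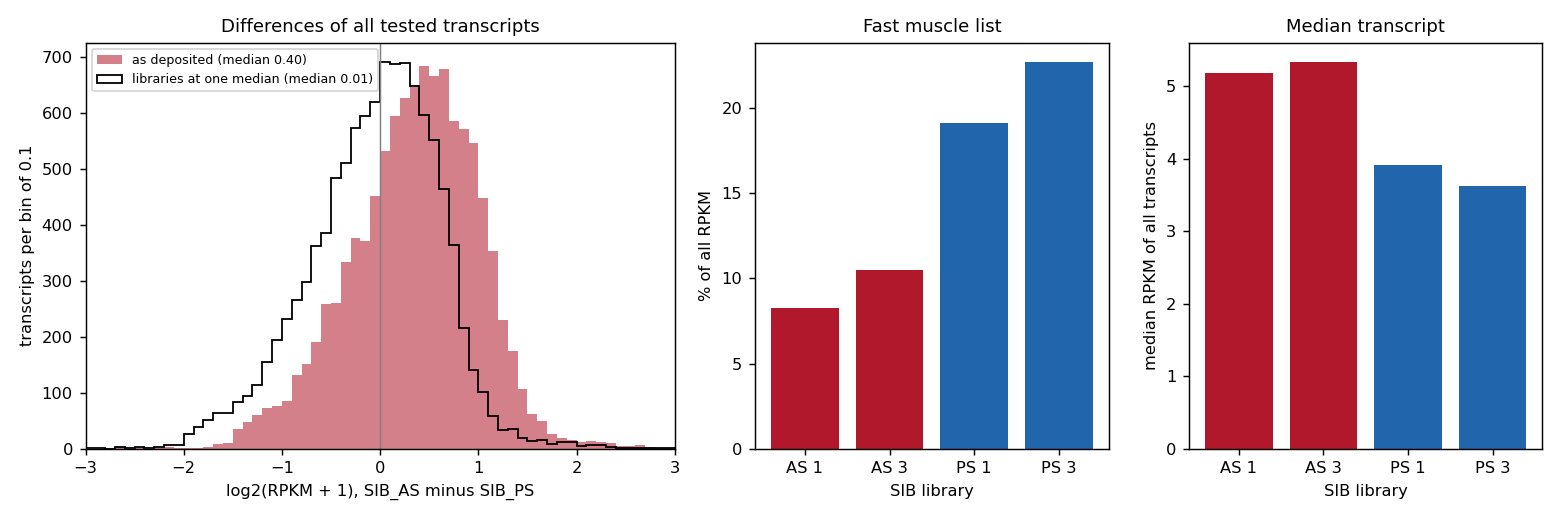
Left, histogram of the SIB_AS minus SIB_PS difference, log2(RPKM + 1), over 10654 transcripts as deposited (filled, median 0.40) and with libraries at one median (line, median 0.01); the axis stops at ±3. Middle and right, the share of all RPKM held by the fast muscle list (%) and the median RPKM, 1 bar per SIB library: the fast muscle share is lower and the median transcript higher in both SIB_AS libraries.

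Estimated from the step between low values, and known only up to a factor of 2, the sibling libraries SIB_AS replicates 1 and 3 and SIB_PS replicate 1 held 32.8%, 19.9% and 28.1% of the reads of SIB_PS replicate 3. Between 2.24% and 5.74% of transcripts were listed at 0. Replicates correlated with r = 0.990 in SIB_AS and 0.991 in SIB_PS across transcripts, which are not independent replicates. The pieces held what a trunk should: skeletal muscle (mylpfa), neurons (elavl3), notochord (col8a1a) and epidermis (krt4) were all present. The tail bud markers tbx6, her1 and msgn1 stayed below 0.2 RPKM in all 4 libraries. No gene of the lens list passed the filter either (0 of 17 in the table), and cryaa was at 0.116 and 0 RPKM in SIB_AS and at 0.0451 and 0.0191 RPKM in SIB_PS.

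The hox genes split at paralog groups 7 and 8. Of 47 hox genes measured, 39 passed the filter on low values, and the 8 that did not were all of groups 11 to 13. In groups 1 to 3, 8 of 10 were higher in SIB_AS and none lower (7 and 0 with libraries at one median), and the median difference was 1.27. In groups 4 and 5, 8 of 8 were higher on both scales, with a median of 2.32. In groups 6 to 8, 6 were higher and 2 lower (4 and 2 at one median). In groups 9 and 10, 8 of 8 were lower on both scales, with a median of -2.13, and in groups 11 to 13, 3 of the 5 that passed were lower and 1 higher.

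hoxb5b had the largest hox difference. It stood at 68.9 and 73.9 RPKM in SIB_AS, against 7.45 and 3.66 RPKM in SIB_PS, a difference of 3.53 (SE 0.28, adjusted p = 7.16e-05). hoxb4a reached 46.2 and 42.1 RPKM in SIB_AS, against 6.92 and 5.47 RPKM in SIB_PS, and hoxc4a 45.9 and 43.0 RPKM, against 7.59 and 4.83 RPKM. Both anterior libraries were several times above both posterior ones for these genes. hoxb6b, of the next group back, still had 60.8 and 73.7 RPKM in SIB_AS, against 11.8 and 10.4 RPKM in SIB_PS (difference 2.50, adjusted p = 5.76e-05).

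At groups 7 and 8 the directions were mixed. hoxb7a, the only group 7 gene in the table, had 8.42 and 10.3 RPKM in SIB_AS, against 17.2 and 13.9 RPKM in SIB_PS, a difference of -0.68 (SE 0.17, adjusted p = 0.00892). hoxc8a was lower too, with 25.9 and 30.1 RPKM in SIB_AS, against 43.6 and 39.4 RPKM in SIB_PS. hoxb8a ran the other way, at 73.5 and 76.3 RPKM in SIB_AS and 51.1 and 42.3 RPKM in SIB_PS, and so did hoxb8b, but with libraries at one median neither was called (adjusted p = 0.259 and 0.229). The calls on hoxb7a and hoxc8a were both lost when SIB_AS replicate 1 or SIB_PS replicate 1 was left out, and 1 of them was lost without SIB_PS replicate 3.

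From group 9 on the posterior segments led. hoxc9a had 6.76 and 7.45 RPKM in SIB_AS, against 45.6 and 42.3 RPKM in SIB_PS, a difference of -2.47 (SE 0.16, adjusted p = 4.71e-05). hoxb10a had 2.34 and 2.28 RPKM in SIB_AS, against 22.4 and 17.9 RPKM in SIB_PS, a difference of -2.67 (adjusted p = 4.71e-05). hoxb9a was the most abundant gene of group 9 in both regions, at 44.1 and 43.0 RPKM in SIB_AS and 91.5 and 104 RPKM in SIB_PS, and had the smallest difference of groups 9 and 10 (-1.15). Summed over a group, group 5 fell off behind, with 163 and 179 RPKM in SIB_AS, against 29.3 and 21.6 RPKM in SIB_PS, whereas group 9 held 72.8 and 70.1 RPKM in SIB_AS, against 241 and 245 RPKM in SIB_PS.

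A few hox genes stood outside this order. hoxc3a, of a low group, had 51.5 and 58.9 RPKM in SIB_AS and 56.9 and 46.2 RPKM in SIB_PS, and its groups overlapped. hoxd3a was called higher as deposited (difference 0.43, adjusted p = 0.0425) but stood at -0.02 with libraries at one median. hoxa13b, the only group 13 gene to pass, was higher in SIB_AS, with 1.97 and 2.27 RPKM against 0.510 and 0.442 RPKM in SIB_PS (difference 1.08, adjusted p = 0.00184). Its levels were low, and the other genes of group 13 did not reach the filter: hoxa13a, for one, stood at 0.0809 and 0 RPKM in SIB_AS, against 0.508 and 0.468 RPKM in SIB_PS.

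**Figure D2:**
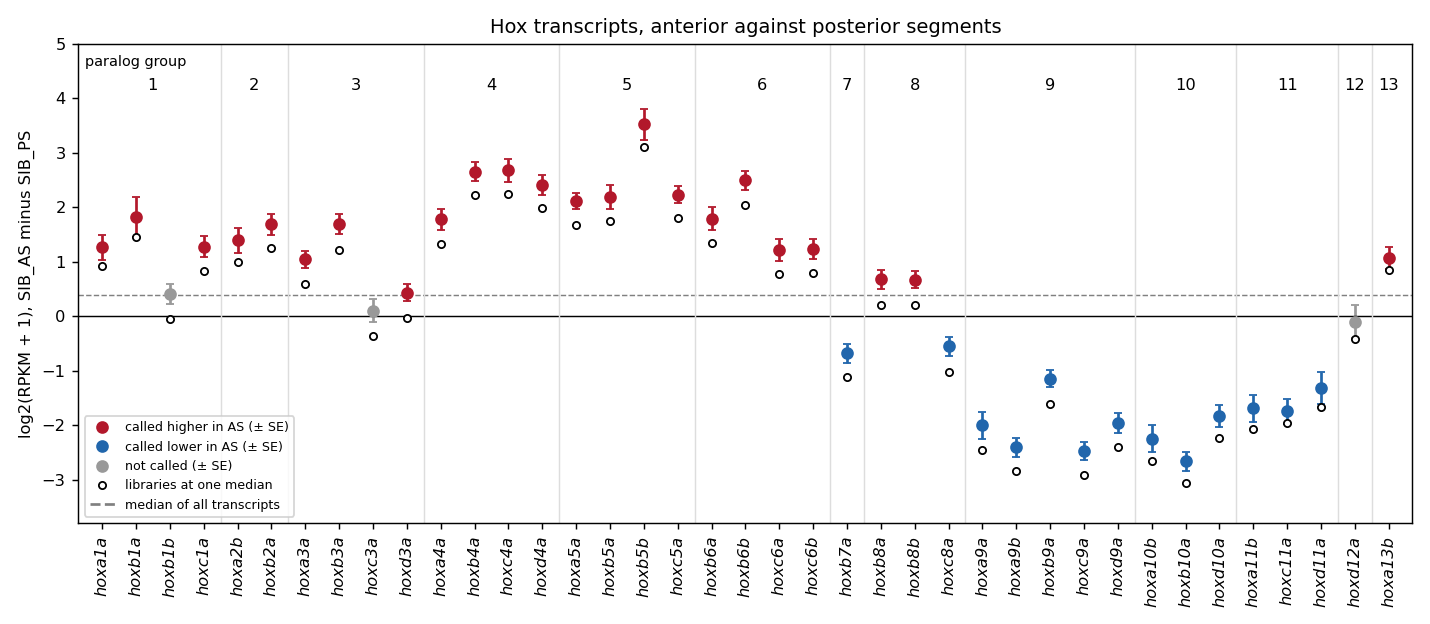
Difference of 39 hox transcripts, SIB_AS minus SIB_PS, log2(RPKM + 1), ordered by paralog group (numbers at the top); filled points with SE are as deposited and coloured by call, open points are with libraries at one median, and the dashed line is the median of all transcripts (0.40). Groups 4 to 6 lie above 1 and groups 9 to 11 below -1, with groups 7 and 8 between.

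Genes of the retinoic acid pathway were higher in front, both the receptors and the enzymes that destroy the signal. Of 10 receptor genes listed 8 passed the filter, and all 8 were higher in SIB_AS, with a median difference of 0.93. Only 4 were called with libraries at one median, and 5 as deposited without either SIB_AS replicate 3 or SIB_PS replicate 3. The shares of all transcripts called higher were 42.0% as deposited and 19.2% at one median. Under the filter, rxrab had 0.316 and 0.761 RPKM in SIB_AS and 0.392 and 0.498 RPKM in SIB_PS, with overlapping groups. The groups of rargb, at 0.795 and 0.845 RPKM against 0.0544 and 0.146 RPKM, did not overlap. Among the receptors rarga had 31.7 and 28.1 RPKM in SIB_AS, against 5.30 and 4.76 RPKM in SIB_PS (difference 2.36, SE 0.21, adjusted p = 0.000136), and rxrga 10.3 and 12.9 RPKM, against 2.02 and 1.20 RPKM. The cyp26 enzymes break retinoic acid down. cyp26c1 had 17.6 and 12.1 RPKM in SIB_AS, against 1.83 and 0.332 RPKM in SIB_PS (difference 3.01), and cyp26b1 26.7 and 17.2 RPKM, against 4.79 and 1.23 RPKM. The posterior replicates differed from each other by several times for both enzymes, yet neither overlapped the anterior ones. crabp1b, a carrier that binds retinoic acid in the cell, differed by 2.07 (adjusted p = 6.93e-05).

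Genes of synthesis and supply were mixed. aldh1a2, which makes retinoic acid in the somites, had 19.9 and 25.8 RPKM in SIB_AS, against 12.6 and 12.0 RPKM in SIB_PS, a difference of 0.84 (adjusted p = 0.00227) that was not called with libraries at one median (adjusted p = 0.0657). rbp4, the retinol carrier of the blood, was the only lower member, with 86.2 and 110.2 RPKM in SIB_AS, against 233 and 222 RPKM in SIB_PS. Of 17 measured members of the synthesis and breakdown list 14 passed the filter. Of these, 9 were higher and 1 lower, and 5 and 1 with libraries at one median. Among all transcripts 42.0% were higher and 9.87% lower as deposited, and 19.2% and 21.6% at one median.

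Most genes of the hindbrain list, and as deposited most of the ear list, were higher in the anterior pieces, although heads had been cut off. Of the hindbrain list 26 of 28 were higher in SIB_AS and none lower (25 and 0 at one median), with a median difference of 1.65. Their summed level was 0.0827% and 0.0705% of all RPKM in SIB_AS, against 0.0220% and 0.0174% in SIB_PS. Many of these genes are also active in the dorsal spinal cord. atoh1b, which specifies dorsal neurons and hair cells, had 31.6 and 24.9 RPKM in SIB_AS, against 2.29 and 1.66 RPKM in SIB_PS (difference 3.30, SE 0.26, adjusted p = 7.03e-05), and ptf1a, which directs inhibitory dorsal neurons, 14.0 and 11.4 RPKM, against 1.74 and 1.01 RPKM. phox2a, of the visceral motor and noradrenergic neurons, had 11.6 and 8.95 RPKM in SIB_AS, against 1.30 and 0.411 RPKM in SIB_PS.

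Transcripts of places further forward were present as well. stm (starmaker) and otomp, which encode proteins of the ear stone, stood at 56.2 and 45.7 RPKM and 20.6 and 18.9 RPKM in SIB_AS, against 5.82 and 0.964 RPKM and 1.63 and 0.0998 RPKM in SIB_PS. They were among the 11 called transcripts with a difference of at least 3, at 3.82 and 3.61 (SE 0.73 and 0.59). eng2b, a marker of the border between midbrain and hindbrain, had 6.40 and 5.53 RPKM in SIB_AS, against 0.0173 and 0.0146 RPKM in SIB_PS. Of the 27 forebrain, midbrain and eye genes listed, 15 passed the filter and 14 of these were higher (12 at one median). Their defining genes were at low levels, foxg1a at 3.87 and 2.26 RPKM in SIB_AS, against 1.10 and 0.844 RPKM in SIB_PS, and otx2 at 7.74 and 4.01 RPKM, against 0.709 and 0.682 RPKM. How much a piece of head left at the cut adds to the differences in neural, ear and arch genes was not tested.

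In the pharyngeal arch list 12 of 23 were higher and 1 lower (6 and 4 with libraries at one median, and 7 higher as deposited without SIB_AS replicate 1). Of all transcripts 42.0% were higher and 9.87% lower as deposited, and 19.2% and 21.6% at one median. barx1, a regulator of arch and stomach mesenchyme, had 12.9 and 12.6 RPKM in SIB_AS, against 1.29 and 0.0866 RPKM in SIB_PS (difference 3.12), and tbx1, which patterns the arches, 18.5 and 14.2 RPKM, against 2.26 and 0.978 RPKM. Other arch genes were not called higher: dlx3b stood at 12.5 and 10.2 RPKM in SIB_AS and 12.6 and 10.6 RPKM in SIB_PS, with overlapping groups, and was called lower at one median (adjusted p = 0.0341). In the ear list, which shares atoh1a and atoh1b with the hindbrain list, 9 of 15 were higher and none lower (7 and 1 at one median). Heart muscle was uneven between the anterior replicates. Of the heart list 5 of 14 were higher and 2 lower as deposited, a share of higher genes below the 42.0% of all transcripts. At one median 4 were higher and 2 lower, a share of higher genes above the 19.2% of all transcripts. Fewer were higher as deposited without SIB_AS replicate 1 or SIB_PS replicate 3. The heart list had a median difference of 1.02 as deposited, against 0.40 over all transcripts, and of 0.90 at one median, against 0.01. Its summed level was 0.0984% and 0.0815% of all RPKM in SIB_AS, against 0.177% and 0.176% in SIB_PS. That sum includes actc1a, an actin also used in skeletal muscle, which averaged 372 RPKM in SIB_AS, against 863 RPKM in SIB_PS. myl7, the myosin light chain of heart muscle, was at 13 and 0.431 RPKM in SIB_AS replicates 1 and 3, against 0.122 and 0.533 RPKM in SIB_PS, and did not pass (difference 1.77, SE 2.02, adjusted p = 0.501). nppa and vmhc followed it, at 2.95 and 0.217 RPKM and at 2.54 and 0.0590 RPKM in SIB_AS, against at most 0.168 and 0.105 RPKM in SIB_PS. The regulators tbx20 and tbx2b were higher in both anterior libraries (1.68 and 1.82).

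Genes of neurons and their precursors were higher in front, where 42.0% of all transcripts were higher as deposited and 19.2% at one median. Pan-neuronal genes held 0.245% and 0.215% of all RPKM in SIB_AS, against 0.0897% and 0.0837% in SIB_PS, and 18 of 23 were higher with none lower (11 and 0 at one median). elavl3, an RNA-binding protein of new neurons, had 118 and 134 RPKM in SIB_AS, against 30.1 and 33.7 RPKM in SIB_PS (difference 1.95, SE 0.19, adjusted p = 0.000156). Spinal progenitor and glia genes were higher in 20 of 23 cases (16 at one median), led by fabp7a, a fatty acid binding protein of radial glia, at 357 and 259 RPKM in SIB_AS, against 81.5 and 64.6 RPKM in SIB_PS. gfap, the radial glia filament gene, was not among them, at 128 and 153 RPKM in SIB_AS and 114 and 111 RPKM in SIB_PS (adjusted p = 0.187).

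Genes of spinal interneurons and of motor neurons formed separate lists. For comparison with both, 42.0% of all transcripts were higher and 9.87% lower as deposited, and 19.2% and 21.6% at one median. Of the interneuron list 21 of 27 were higher and none lower (16 and 2 at one median). lbx1a, which marks dorsal interneurons and also muscle precursors that migrate to the fins, had 23.3 and 20.2 RPKM in SIB_AS, against 4.17 and 2.85 RPKM in SIB_PS (difference 2.35). Of the motor neuron list 11 of 18 were higher and none lower (6 and 3 at one median, and 7 as deposited without SIB_AS replicate 1). mnx1, a regulator of motor neurons, had 111 and 84.6 RPKM in SIB_AS, against 29.4 and 35.5 RPKM in SIB_PS (difference 1.56, SE 0.22, adjusted p = 0.000497). mnx1 is also active in the pancreas. isl1 had 22 and 22.1 RPKM in SIB_AS, against 8.39 and 7.85 RPKM in SIB_PS, and foxp1b, whose counterpart in mouse and chick sets limb motor neurons apart, 6.41 and 8.22 RPKM, against 2.88 and 3.04 RPKM. The progenitor gene olig2 had 11.8 and 11.2 RPKM in SIB_AS and 14.3 and 13.4 RPKM in SIB_PS and was called lower only with libraries at one median (adjusted p = 0.00379), and chat, which makes the motor transmitter acetylcholine, had 2.29 and 2.82 RPKM in SIB_AS and 1.76 and 2.42 RPKM in SIB_PS, with overlapping groups.

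The guidance families that steer axons were surveyed because the anterior segments are those the fin nerves cross. All 8 Eph receptors measured were higher in SIB_AS (6 at one median). Of the ephrins, their membrane-bound ligands, 6 of the 8 that passed the filter were higher (4 at one median). As background, 42.0% of all transcripts were higher as deposited and 19.2% at one median. ephb3a had 11.3 and 11.7 RPKM in SIB_AS, against 3.23 and 3.41 RPKM in SIB_PS (difference 1.54, SE 0.18, adjusted p = 0.000244), and epha4a, a receptor known for motor axon choice in mammals and chick, 22.3 and 18.9 RPKM, against 7.69 and 7.79 RPKM. Among ligands efna2 had 8.64 and 7.87 RPKM in SIB_AS, against 1.34 and 1.14 RPKM in SIB_PS, while efna1b was at 23.5 and 22.6 RPKM and 23.2 and 18.8 RPKM, with overlapping groups. Both named receptors and efna2 were higher in both anterior libraries than in either posterior one.

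Of the slits, netrins and their receptors 12 of 17 were higher and none lower (6 at one median). robo3, a Slit receptor family member of commissural axons, had 21.7 and 22.2 RPKM in SIB_AS, against 9.55 and 9.65 RPKM in SIB_PS (difference 1.12, adjusted p = 0.000385), and slit1b 7.85 and 7.41 RPKM, against 2.14 and 2.7 RPKM. Among neuropilins and plexins 5 of 9 were higher (3 at one median), with plxna4 at 5.75 and 5.85 RPKM in SIB_AS, against 1.22 and 1.19 RPKM in SIB_PS. These counts stand beside 42.0% of all transcripts higher as deposited and 19.2% at one median. Semaphorins were higher at about the share of all transcripts, with 6 of 15 higher and 2 lower (4 and 3 at one median, and 1 or 0 lower as deposited when SIB_AS replicate 1 or 3, SIB_PS replicate 3 or either MUT_PS library was left out). sema3aa, a secreted axon repellent, had 19.1 and 20.8 RPKM in SIB_AS and 15.1 and 17.9 RPKM in SIB_PS and did not pass (adjusted p = 0.272). Of the 106 tested transcripts (97 symbols) that the authors' deposited table marks with the axon guidance term, 58 were higher and 7 lower (34 and 11 at one median). The shares of all transcripts were 42.0% higher and 9.87% lower as deposited, and 19.2% and 21.6% at one median. The median difference of the marked transcripts was 0.54, against 0.40 over all transcripts.

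**Figure D3:**
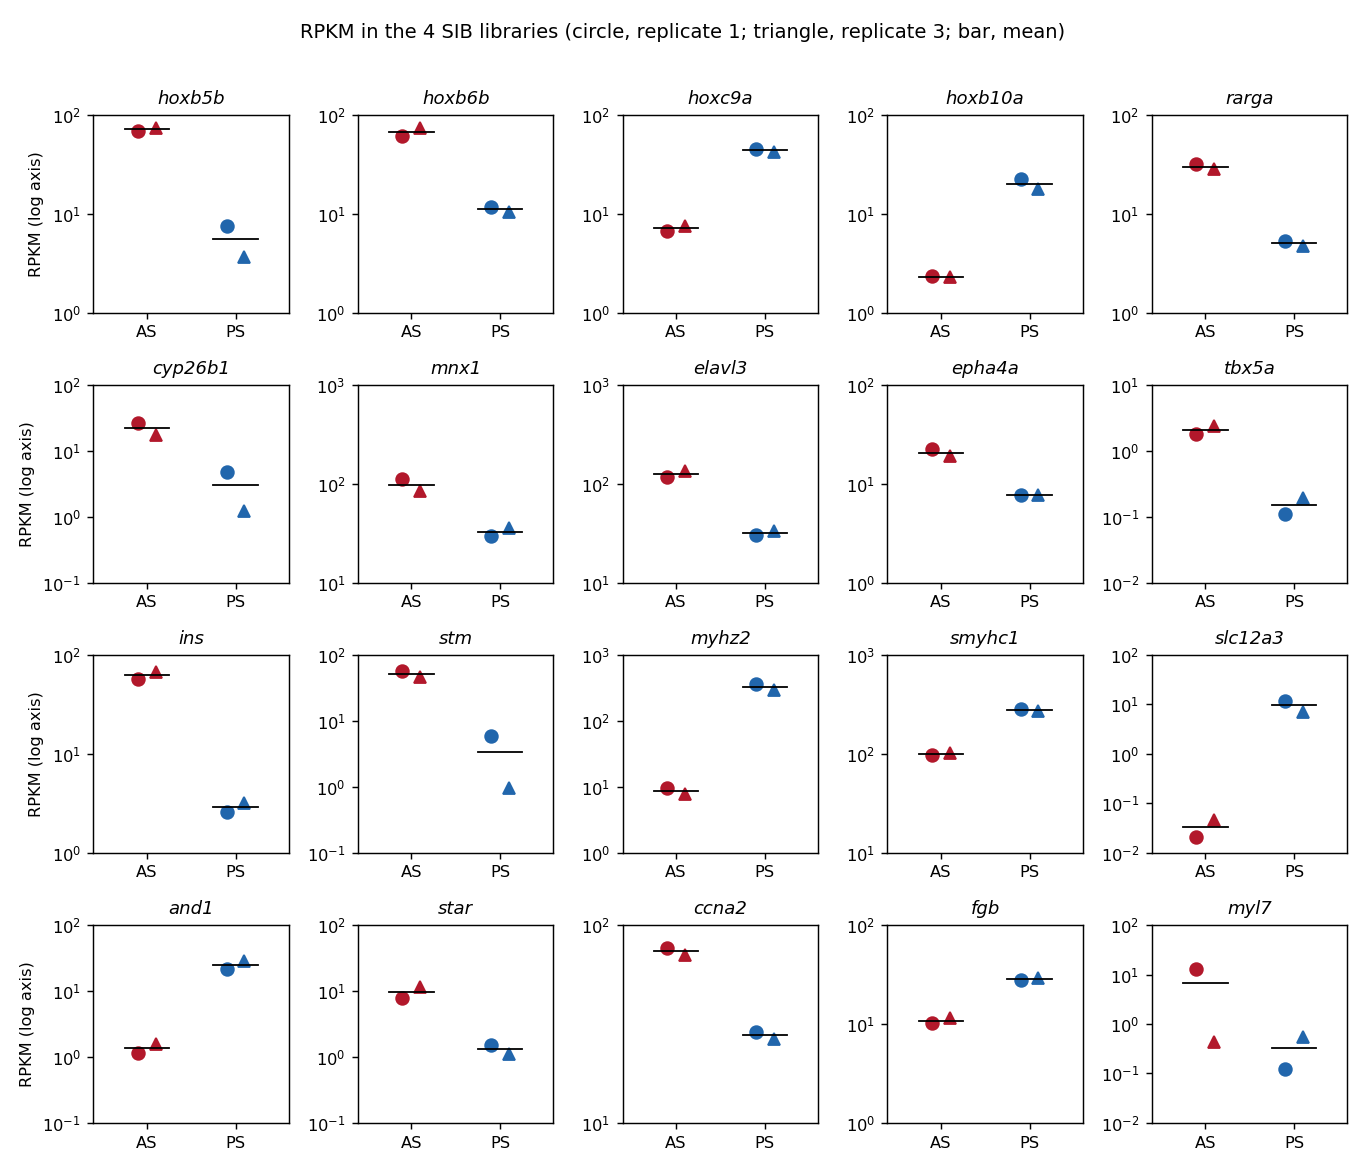
RPKM of 20 transcripts (log axis, with its own range in each panel) in the 4 SIB libraries, AS left of PS; circles are replicate 1, triangles replicate 3 and bars the mean. In every panel but that of myl7 both AS points lie on one side of both PS points.

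Skeletal muscle structural genes were lower in the anterior segments. Of the fast muscle list 37 of 41 were lower in SIB_AS and 1 higher (38 and 1 at one median), with a median difference of -1.28. The strongest was myhz2, a fast myosin heavy chain, at 9.58 and 7.69 RPKM in SIB_AS, against 359 and 289 RPKM in SIB_PS (difference -5.08, SE 0.20, adjusted p = 1.83e-06), the lowest difference of all 10654 transcripts. Its neighbour in the list, myhz1.2, had 364 and 451 RPKM in SIB_AS and 396 and 543 RPKM in SIB_PS, with overlapping groups and no call as deposited. The fast myosin genes are near copies of each other, and reads were assigned to a single transcript each, so the split between them is uncertain. The muscle calcium buffer pvalb3 had 29.2 and 31.4 RPKM in SIB_AS, against 151 and 129 RPKM in SIB_PS.

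One fast muscle gene ran against the rest. tnni2b.2, a fast troponin I, had 55.7 and 83.4 RPKM in SIB_AS, against 21.1 and 17.6 RPKM in SIB_PS, a difference of 1.77 (SE 0.25, adjusted p = 0.000511). Slow fibre genes followed the fast ones: 8 of 12 were lower and 1, prox1a, higher on both scales. smyhc1, the slow myosin heavy chain, had 97.9 and 102 RPKM in SIB_AS, against 283 and 273 RPKM in SIB_PS (difference -1.47, adjusted p = 0.000287). prox1a encodes a regulator of slow fibres that is also active in liver and pancreas.

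The factors that make muscle were divided. In the list of myogenic regulators 4 of 22 were higher and 6 lower (3 and 8 at one median, and 3 lower as deposited without SIB_AS replicate 1 or SIB_PS replicate 3). myod1, which commits cells to muscle, had 11.1 and 11.7 RPKM in SIB_AS, against 33.8 and 31.1 RPKM in SIB_PS (difference -1.43, adjusted p = 0.00208), and myf6 of the same family 1.98 and 2.21 RPKM, against 8.47 and 7.70 RPKM. pax3a, which marks muscle precursors and dorsal neural tissue, was higher, with 8.80 and 10.4 RPKM in SIB_AS, against 3.37 and 3.48 RPKM in SIB_PS (difference 1.26). Of the genes of migratory muscle precursors 6 of 12 were higher and none lower (5 and 1 at one median, and 1 lower as deposited without either MUT_AS library), including lbx2 at 17.9 and 14.8 RPKM in SIB_AS, against 7.67 and 5.46 RPKM in SIB_PS. A share of 6 in 12 is close to the 42.0% of all transcripts higher as deposited, while 5 in 12 at one median is above their 19.2%. For both lists, the shares of all transcripts called lower were 9.87% as deposited and 21.6% at one median.

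Genes of somite derivatives other than muscle did not all lean the same way. foxc1a itself, the gene mutated in this line, had 18.1 and 16.3 RPKM in SIB_AS, against 7.75 and 7.32 RPKM in SIB_PS, and its paralog foxc1b 13 and 11.4 RPKM, against 4.22 and 4.13 RPKM. The differences were 1.09 and 1.35, and with libraries at one median 0.66 and 0.94 (adjusted p = 0.00719 and 0.00131). In the list of sclerotome, dermomyotome and tendon genes, which holds both, 11 of 22 were higher and none lower (10 and 4 at one median, and 1 lower as deposited without either MUT_AS library). A share of 11 in 22 is close to the 42.0% of all transcripts as deposited, while at one median 19.2% were higher and 21.6% lower. prrx1b, a mesenchyme regulator, had 16.2 and 13.1 RPKM in SIB_AS, against 4.45 and 3 RPKM in SIB_PS. tgfbi, a secreted matrix protein, had 149 and 153 RPKM in SIB_AS and 181 and 202 RPKM in SIB_PS and was lower only at one median.

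Calls on structural matrix genes depended on the scale and on single libraries. Beside the list counts that follow, the shares of all transcripts were 42.0% higher and 9.87% lower as deposited. At one median they were 19.2% and 21.6%. Of the connective tissue matrix list 3 of 21 were higher and 6 lower (0 and 16 at one median), and as deposited 3 were lower without SIB_AS replicate 1, 2 without SIB_PS replicate 3 and 10 without either MUT_AS library. The 3 higher members became 1 without SIB_AS replicate 1 or either SIB_PS library. col1a1a had 179.5 and 186 RPKM in SIB_AS, against 298 and 331 RPKM in SIB_PS (difference -0.78, adjusted p = 0.00569). Of the cartilage list 5 of 16 were higher and 9 lower (2 and 10 at one median), but without SIB_AS replicate 1 or SIB_PS replicate 3 only 1 and 2 were lower, and without SIB_AS replicate 3 or SIB_PS replicate 1 only 3 were higher. Of the notochord list 3 of 19 were higher and 8 lower (2 and 10 at one median, and 4 lower as deposited without either of the same libraries). cmn (calymmin), a protein of the notochord sheath, had 33.5 and 46.6 RPKM in SIB_AS, against 116 and 131 RPKM in SIB_PS. The transcript listed as zgc:194937, which the reference annotation names col9a1a, a minor cartilage collagen, went the other way, with 16.1 and 12.6 RPKM in SIB_AS, against 1.28 and 0.373 RPKM in SIB_PS (difference 3.11, SE 0.31).

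The lists of pectoral fin bud genes and fin fold genes leaned in opposite directions. Of 19 pectoral fin bud genes that passed the filter 14 were higher in SIB_AS and none lower. At one median 6 were higher and 1 lower, and as deposited 8 were higher without SIB_AS replicate 1 or SIB_PS replicate 3. For comparison, 42.0% of all transcripts were higher as deposited, and 19.2% were higher and 21.6% lower at one median. tbx5a, which starts the fin bud, had 1.82 and 2.35 RPKM in SIB_AS, against 0.110 and 0.190 RPKM in SIB_PS (difference 1.42, SE 0.19, adjusted p = 0.000385), so that only the anterior libraries exceeded 1 RPKM. fgf24, which acts after tbx5a in the fin field, had 2.09 and 1.82 RPKM in SIB_AS, against 0.734 and 0.486 RPKM in SIB_PS. shha, the hedgehog ligand of the fin bud and also of the floor plate, was at 17.1 and 16.8 RPKM in SIB_AS and 13.8 and 13.6 RPKM in SIB_PS and did not pass (adjusted p = 0.112).

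The fin fold genes were lower in front, with 8 of 10 lower and none higher (9 and 0 at one median). They include the actinodins, which build the rods that stiffen the fold. and1 had 1.14 and 1.60 RPKM in SIB_AS, against 21.8 and 28.1 RPKM in SIB_PS (difference -3.45, SE 0.18, adjusted p = 1.50e-05), and and3 0.266 and 0.730 RPKM, against 12.2 and 16.3 RPKM. and1 and and3 were among the 6 transcripts called lower by 3 or more on the log2 scale.

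For growth factor signalling, hedgehog pathway genes were higher in 11 of 16 cases (4 at one median, and 7 as deposited without SIB_PS replicate 3), with smo, the signal transducer, at 24.6 and 26.4 RPKM in SIB_AS, against 10.5 and 10.5 RPKM in SIB_PS. The Fgf list had 15 of 20 higher and 1 lower as deposited, but 2 and 1 at one median, and as deposited 5 to 9 higher and none lower when any 1 sibling library was left out. For comparison with both lists, 42.0% of all transcripts were higher as deposited and 19.2% at one median. etv4, a target of Fgf signals, had 15.9 and 14.1 RPKM in SIB_AS, against 6.30 and 5.99 RPKM in SIB_PS (difference 1.16), and spry2, another target, 18.5 and 18.6 RPKM and 20.4 and 17.6 RPKM, with overlapping groups.

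Genes of the organs of the body cavity differed by region. Of 31 pancreas genes measured, 17 passed the filter and 16 of these were higher in SIB_AS (13 at one median). Among all transcripts 42.0% were higher as deposited and 19.2% at one median. Genes under the filter were mixed. pcsk1 had 1.07 and 1.40 RPKM in SIB_AS, against 0.248 and 0.494 RPKM in SIB_PS. zgc:66382 had 0.0949 and 0.312 RPKM, against 0.442 and 0.446 RPKM, and the groups of try overlapped (0.551 and 0.319 RPKM, and 0.452 and 0.351 RPKM). The islet hormone genes were among the highest: ins (insulin) had 56.7 and 67.8 RPKM in SIB_AS, against 2.61 and 3.23 RPKM in SIB_PS, a difference of 4.01 (SE 0.71, adjusted p = 0.00528), the highest of all. gcgb (glucagon) had 35.3 and 35.3 RPKM in SIB_AS, against 1.59 and 2.03 RPKM in SIB_PS, and sst2 (somatostatin) 38.2 and 49.2 RPKM, against 2.5 and 2.54 RPKM. pdx1, the regulator of pancreas and duodenum, had 3.83 and 3.59 RPKM in SIB_AS, against 0.819 and 0.135 RPKM in SIB_PS.

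Genes of liver and plasma proteins went the opposite way, with 17 of 21 lower in SIB_AS and none higher (20 and 0 at one median). fgb, a fibrinogen chain, had 10.2 and 11.4 RPKM in SIB_AS, against 28.1 and 29.4 RPKM in SIB_PS (difference -1.33, adjusted p = 0.000269). The apolipoproteins of this list are also made by the layer around the yolk, and the liver marker fabp10a was at 0.0609 and 0 RPKM in SIB_AS and at 0 and 0.0400 RPKM in SIB_PS. Another liver marker, hhex, which is outside this list, was higher in both anterior libraries. It stood at 5.56 and 4.76 RPKM in SIB_AS, against 3.10 and 1.68 RPKM in SIB_PS. The share of the liver and plasma protein list in all RPKM was 0.533% and 0.479% in SIB_AS, against 1.11% and 0.791% in SIB_PS. In the gut list 13 of 25 were higher and 4 lower (9 and 6 at one median, and as deposited 8 higher without SIB_PS replicate 3 and 2 lower without SIB_PS replicate 1). Over all transcripts 42.0% were higher and 9.87% lower as deposited, and 19.2% and 21.6% at one median. The cadherin gene cdh17, of gut and kidney duct epithelium, was lower (-1.41).

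The kidney changed along its length. Of the glomerulus list, the filter at the front of the pronephros, 9 of 12 were higher and 1 lower (6 and 2 at one median), and as deposited none was lower without any 1 sibling library or either MUT_PS library. wt1b had 2.81 and 3.43 RPKM in SIB_AS, against 0.742 and 0.632 RPKM in SIB_PS, and podxl, of the podocyte surface, 17.8 and 18.0 RPKM, against 6.50 and 5.42 RPKM. Proximal tubule genes were mixed, with 3 of 13 higher and 2 lower (2 and 7 at one median, and 1, 1 and 0 lower as deposited without SIB_AS replicate 1, SIB_AS replicate 3 and SIB_PS replicate 1).

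Some salt transporter genes of the distal tubule were near 0 in the anterior pieces. slc12a3, the cotransporter of the late distal segment, had 0.0212 and 0.0466 RPKM in SIB_AS, against 11.9 and 7.16 RPKM in SIB_PS (difference -3.31, SE 0.26, adjusted p = 7.03e-05). clcnk, a chloride channel of the kidney, had 0.0685 and 0.113 RPKM in SIB_AS, against 4.41 and 3.29 RPKM in SIB_PS, and kcnj1a.1, a potassium channel, 0.178 and 0.0978 RPKM, against 3.31 and 3.57 RPKM. Across the distal nephron and cloaca list 7 of 16 were lower and 6 higher (7 and 2 at one median). The hormone gene stc1l, of the stanniocalcin family that controls calcium, was another of the strongest differences, with 0.205 and 0.338 RPKM in SIB_AS, against 12.7 and 13.5 RPKM in SIB_PS. star, which brings cholesterol into steroid-making mitochondria and marks the interrenal gland, was higher, with 7.94 and 11.5 RPKM in SIB_AS, against 1.53 and 1.11 RPKM in SIB_PS (difference 2.19, adjusted p = 0.000146), whereas cyp17a1, a later enzyme of that path, had 4.95 and 7.04 RPKM in SIB_AS and 8.22 and 9.01 RPKM in SIB_PS and did not pass as deposited.

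Vessel genes were higher in 14 of 22 cases (7 higher and 1 lower at one median). Of all transcripts 42.0% were higher as deposited, and 19.2% were higher and 21.6% lower at one median. Fewer vessel genes were called higher when any 1 sibling library was left out, as was so over all transcripts. notch1b, an arterial signal receptor, had 13.5 and 17.0 RPKM in SIB_AS, against 5.33 and 7.00 RPKM in SIB_PS. Red blood cell genes mostly did not pass, with 2 of 23 lower (4 at one median, 1 without SIB_AS replicate 3 or SIB_PS replicate 1, 4 without either MUT_PS library), and the anterior replicates differed in haemoglobin: hbbe1.1 had 539 and 196 RPKM in SIB_AS and 409 and 339.5 RPKM in SIB_PS. Myeloid genes gave 5 of 20 higher as deposited and 0 at one median, and as deposited 0, 1 and 2 without SIB_AS replicate 3, SIB_PS replicate 1 and SIB_PS replicate 3, but 9 without either MUT_AS library. Among pigment cell and neural crest genes 5 of 22 were higher (2 at one median, and 2 or 3 as deposited without SIB_AS replicate 1, SIB_AS replicate 3 or SIB_PS replicate 3), a smaller share than the 42.0% of all transcripts, with sox10 at 12.9 and 12.3 RPKM in SIB_AS, against 6.30 and 4.69 RPKM in SIB_PS.

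Epidermal genes leaned lower in front. For the epidermal and ionocyte counts, 9.87% of all transcripts were lower and 42.0% higher as deposited. At one median 21.6% were lower and 19.2% higher. Of the periderm and epidermis list 12 of 30 were lower and 1 higher (26 and 1 at one median), with 3 and 7 lower as deposited without SIB_AS replicate 1 and SIB_PS replicate 1. Their summed level was 1.80% and 2.31% of all RPKM in SIB_AS, against 2.99% and 3.23% in SIB_PS. ppl (periplakin), a linker protein of skin cell junctions, had 30.3 and 40.4 RPKM in SIB_AS, against 62.9 and 75.5 RPKM in SIB_PS (difference -0.96, adjusted p = 0.00316). cldna, a tight junction gene, was the exception, with 9.01 and 7.40 RPKM in SIB_AS, against 1.06 and 0.172 RPKM in SIB_PS. Of 17 measured ionocyte genes 13 passed the filter. Among these 13, 4 were lower and none higher (5 and 0 at one median, and 2 higher as deposited without either MUT_AS library). The lower ones include ca2, a carbonic anhydrase, at 58.8 and 76.4 RPKM in SIB_AS, against 148 and 155 RPKM in SIB_PS.

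Cell cycle genes were higher almost as a block. Of 33 measured members 31 were higher in SIB_AS and none lower (27 and 0 at one median), with a median difference of 1.15, or 0.68 at one median. Their summed level was 0.500% and 0.448% of all RPKM in SIB_AS, against 0.216% and 0.175% in SIB_PS. ccna2, a cyclin of S phase and mitosis, had 76.4 and 70.8 RPKM in SIB_AS, against 28.8 and 26.6 RPKM in SIB_PS (difference 1.38, SE 0.18, adjusted p = 0.000383), and rrm1, which makes deoxynucleotides, 137 and 134 RPKM, against 50.4 and 45.6 RPKM. Differences within this list were even, from 0.67 to 1.48. Spinal progenitor and glia genes moved with them, at 0.286% and 0.248% of all RPKM in SIB_AS, against 0.112% and 0.0925% in SIB_PS, and their part in this result was not tested.

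Genes of stress, daily rhythm and cell death were called in both directions on both scales. Over all transcripts 42.0% were higher and 9.87% lower as deposited, and 19.2% and 21.6% at one median. Of the immediate early and heat shock list 5 of 22 were higher and 4 lower (3 and 5 at one median). Circadian genes had 10 of 21 higher and 1 lower as deposited, 1 and 4 at one median, and 3 or 4 higher as deposited when any 1 sibling library was left out. The p53 and cell death list had 6 of 20 higher and 4 lower (6 and 6 at one median), with 0 to 2 lower as deposited when any library but those of MUT_AS was left out. Of the tail bud and segmentation list 12 of 21 members in the table were under the filter, and of the other 9, 4 were higher and 2, ntla and cdx4, lower. The lower calls fell to 1 without either MUT_PS library and to 0 without any 1 sibling library. The higher ones were led by hes6 and dld, which are also genes of neurogenesis.

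**Figure D4:**
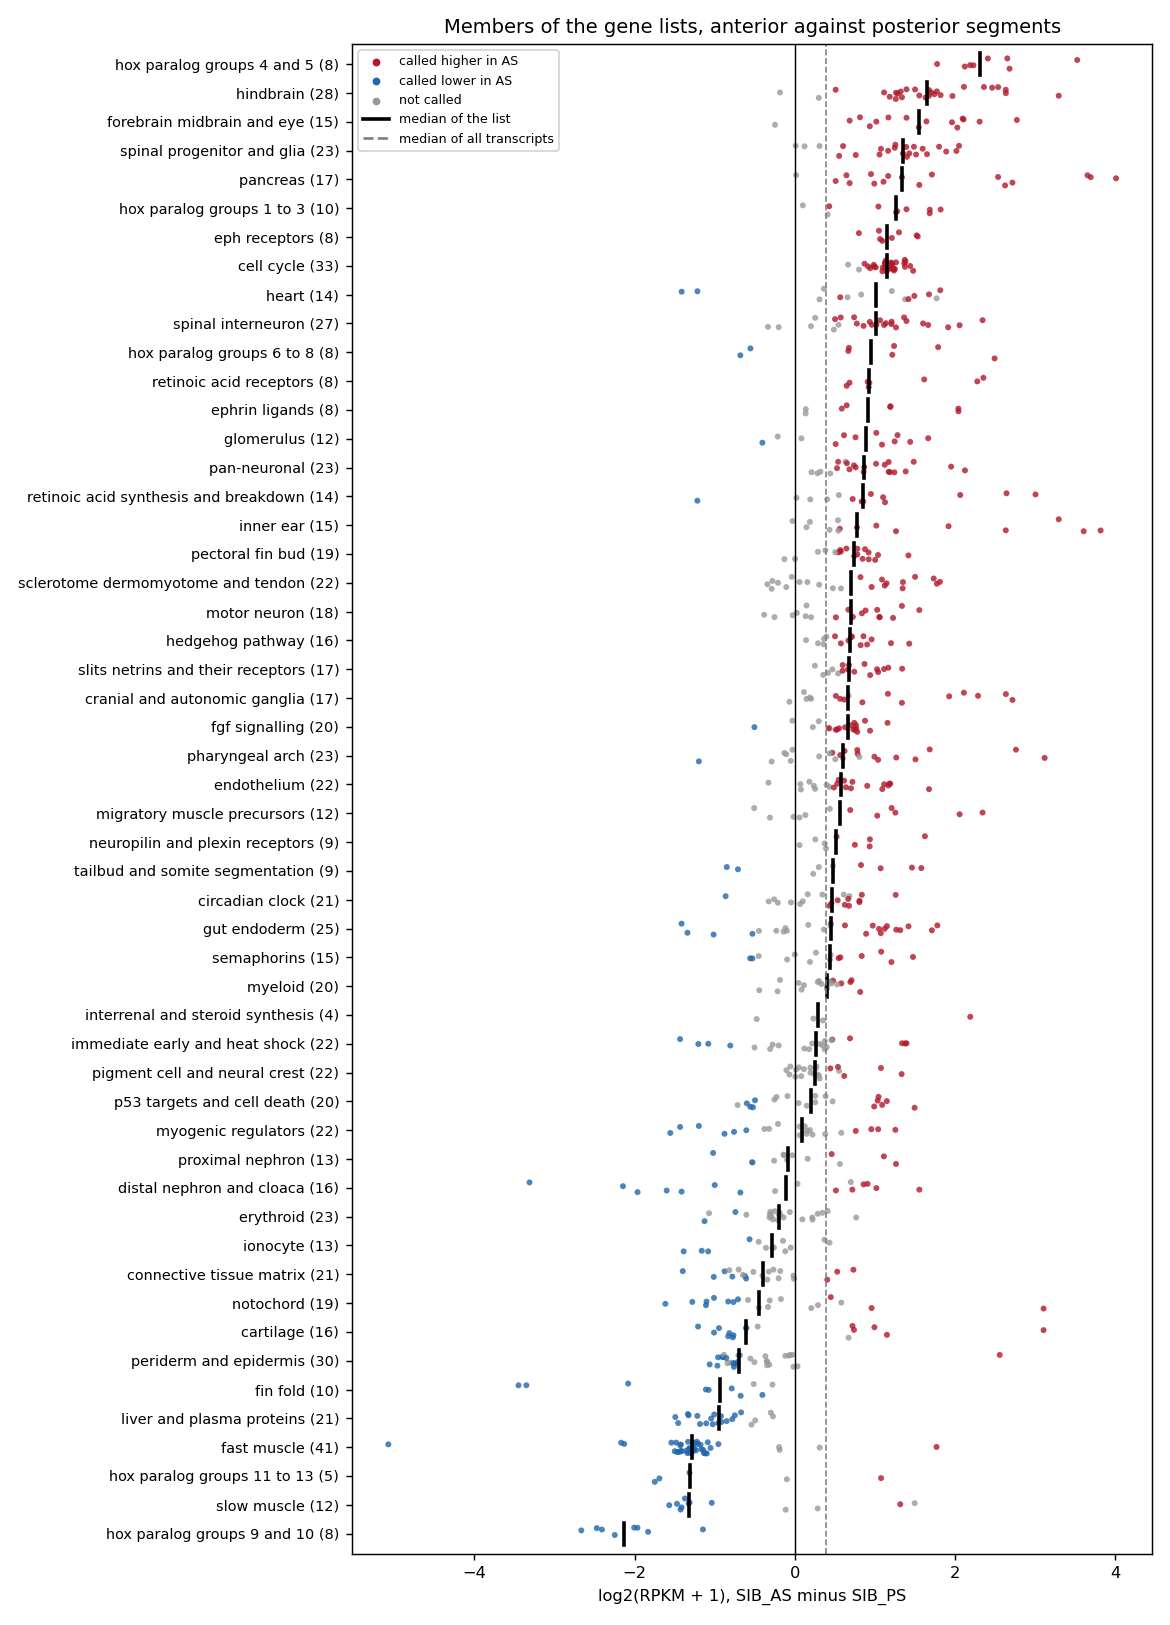
Difference of each tested member, SIB_AS minus SIB_PS, log2(RPKM + 1), in 52 gene lists (number tested in brackets), ordered by median (black bars); points are coloured by call and the dashed line is the median of all transcripts (0.40). Hox groups 4 and 5 and the hindbrain list lie furthest right, and hox groups 9 and 10, slow muscle, hox groups 11 to 13 and fast muscle furthest left.

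The same regions of the mutants, which share no library with the siblings, were compared in the same fit. MUT_AS against MUT_PS had 4715 transcripts (44.3%) called higher and 1182 (11.1%) lower. Of the transcripts called higher in SIB_AS 99.6% also had a positive difference in the mutants, where 72.0% of all transcripts had one, and of those called lower 99.0% had a negative one, against 28.0% of all. With libraries at one median the shares were 99.8% and 99.3%, against 50.2% and 49.8% of all. hoxb5b differed by 3.80 in the mutants and 3.53 in the siblings, and myhz2 by -5.43 and -5.08. hoxa13b, called higher in SIB_AS with a difference of 1.08, differed by 0.33 in the mutants and was not called there (limma adjusted p = 0.195).

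The region difference itself was not shown to depend on genotype for any transcript. This test rests also on MUT_AS, whose replicates were furthest apart (SD 0.358) and whose replicate 3 had 15.5% of transcripts listed at 0. In limma 0 of 10654 interactions passed, while 290 (2.72%) had an unadjusted p under 0.05. The count moved with the mutant libraries: a fit with a weight per group called 2, leaving out MUT_AS replicate 1 gave 192 and leaving out MUT_AS replicate 3 gave 10. star was higher in SIB_AS but stood at 0.558 and 0.650 RPKM in MUT_AS and 0.547 and 0.620 RPKM in MUT_PS. The difference was 0.02 in the mutants and 2.19 in the siblings (interaction adjusted p = 0.101). lyz, the lysozyme of neutrophils, had a difference of 2.51 in the mutants and 0.71 in the siblings, with the same interaction p.

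**Figure D5:**
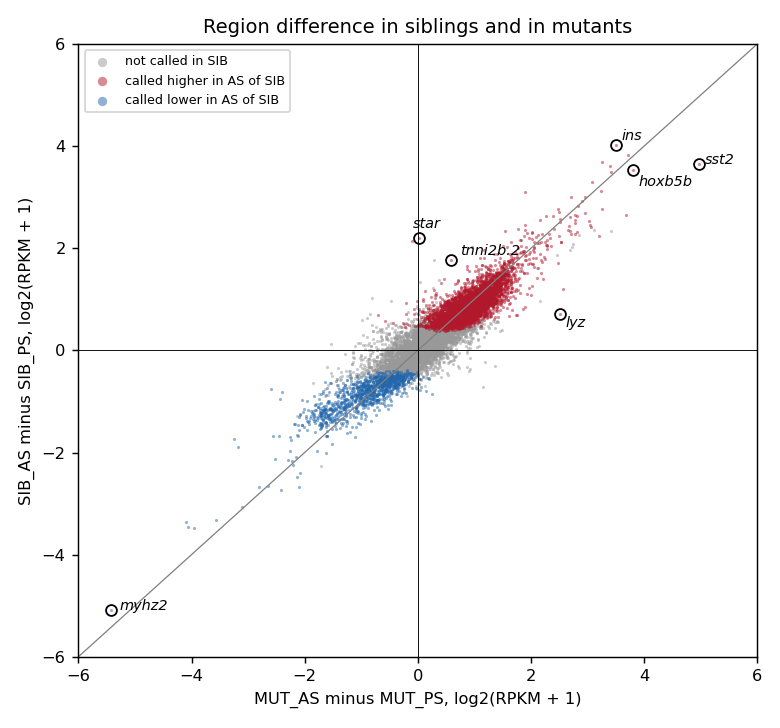
Each of 10654 transcripts by its region difference in MUT (x axis) and in SIB (y axis), AS minus PS, log2(RPKM + 1), coloured by its call in SIB; the diagonal marks equal differences. ins, hoxb5b and myhz2 lie near the diagonal, and star and lyz away from it.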

How the data were processed

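Polyadenylated RNA of 8 libraries was made with the stranded TruSeq kit and 15 PCR cycles from tissue stored at 4 °C in RNAlater (at most 2 days), with an RNA integrity number of 8 or more. It was sequenced on an Illumina HiSeq in paired reads (100 bp per the design text, 101 bp per the labels' protocols). Per the series' design text, RUM aligned reads to Zv9 (danRer7) and gave each to 1 transcript; for its version, the sources used here give none. The deposited expression columns are log2 values of RPKM + 1, per the file headers. The table holds no counts, so counting intervals could not be given, and the depth is known only relatively.

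Of 14809 rows, 228 fill rows at the end and 457 further copies of a transcript were dropped, leaving 14124. Symbols came from the table; 94.3% of accessions were found in an annotation of another build, used for names only. The 10654 transcripts averaging 1 RPKM or more across all 8 libraries entered a limma 3.58.1 fit (R 4.3.3, statmod 1.5.0) with 4 group means and a trended, robust spread. The fit was also run on simulated data with independent noise of constant SD within each group. As that noise has no spread particular to a transcript, the run cannot check the spread assumed here. Differences understate ratios of low values. Figures were drawn with matplotlib 3.10.9. The members and gene lists were chosen with earlier results of these data known. Genes were named by rule: the 15 largest and smallest called differences with at least 5 RPKM in the higher group and no overlap between groups (clone and locus names left out), up to 4 called and 2 uncalled members of each list, foxc1a, foxc1b and the hox genes. aldh1a2, prox1a, ntla, and defining markers such as chat, nppa and vmhc were added after their values were seen. The design foresaw RPKM or counts; the log2 route was used. Alternatives were another pseudocount (0.1), no filter and one of 5 RPKM, one median, the sibling libraries alone, a weight per group, no trend, 1 transcript per symbol, a replicate block and leaving out each library.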

Additional observations from a re-analysis of the deposited data

How the results depend on the processing

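The counts of transcripts called higher and lower in SIB_AS, 4479 and 1052, moved by more than 1.5 times with libraries at one median (2050 and 2300) and with a minimum difference of 1 on the log2 scale (1556 and 334). Leaving out 1 library at a time gave 2567 to 5425 higher, lowest without SIB_PS replicate 3, and 495 to 1425 lower, lowest without SIB_AS replicate 1. The other settings kept both counts within 1.5 times: from 3379 (at least 5 RPKM) to 5458 (weight per group) higher, and from 887 to 1441 (siblings alone) lower. The interaction count of 0 became 2 with a weight per group and ran from 0 to 192 without 1 library. Of 301 named genes 216 were called, and with libraries at one median 15 lost and 26 gained the call. The only called named gene whose direction turned was hoxd3a, at 0.43 as deposited and at -0.02 at one median. Replicates share a number only. With the replicate block 4731 were higher and 1197 lower, and 10 lower (not 6) in the connective tissue matrix list, 11 with a weight per group; deviations of same-numbered SIB_AS and SIB_PS libraries correlated with 0.523, and those of other group pairs with -0.09 to 0.372. Without counts, the depth limits low values in a way that could not be measured.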
